A study of Homo sapiens with 6 samples.

Results

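The ligands of the ErbB receptors were examined in Hs578T cells, a triple-negative breast cancer cell line, with and without knockdown of CCN3, a secreted matricellular protein. The set held 10 genes, taken by symbol from the 46427 genes of the count table: EGF, HBEGF, AREG, EREG, TGFA, BTC, EPGN, NRG1, NRG2 and NRG4. All 10 were found. RNA was sequenced from 3 samples of cells carrying control shRNA (shCTRL) and 3 samples carrying CCN3 shRNA #2 (shCCN3). Both lines were made by retroviral transduction of a pSUPER vector and puromycin selection, so both groups carry a vector. The number of clones or cells behind each selected line is not stated. Cells were grown in DMEM with serum, and no ligand or drug is named in the sample descriptions. The replicates are called independent and biological, without more detail, and all 3 shCCN3 samples carry the same shRNA.

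Members of the EGF family are made as membrane-anchored precursors that are cut at the cell surface to release a soluble ligand. Each carries an EGF-like domain held together by disulfide bonds between paired cysteines, and this domain binds the receptor. EGF, TGFA, AREG and EPGN bind EGFR, while HBEGF, BTC and EREG bind EGFR and ERBB4. The neuregulins NRG1 and NRG2 bind ERBB3 and ERBB4, and NRG4 binds ERBB4. Ligand binding drives receptor dimerization and the MAPK pathway, and many carcinoma cells make ligands for their own receptors.

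The shared domain could be read in the coding sequence of every member, by searching the GENCODE release 29 transcripts (GRCh38) for the codons of 6 cysteines at the family's spacing. Each of the 10 genes held 1 such stretch, of 36 codons in HBEGF, AREG, EREG, TGFA, BTC and EPGN, 37 codons in EGF, NRG2 and NRG4, and 40 codons in NRG1. The opening gap between cysteines, of 7 codons, and the closing gap, of 8 codons, were set by the search. All 10 genes therefore share them by construction. NRG1 differed in the third gap, with 13 codons where the others had 10. The stretches of the 3 ligands with the largest changes, and of BTC as a ligand that did not pass the test, are shown 5′ to 3′ with the cysteine codons in capitals.
HBEGF: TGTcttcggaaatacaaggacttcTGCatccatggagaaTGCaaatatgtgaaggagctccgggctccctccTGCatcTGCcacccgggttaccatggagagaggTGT
EGF: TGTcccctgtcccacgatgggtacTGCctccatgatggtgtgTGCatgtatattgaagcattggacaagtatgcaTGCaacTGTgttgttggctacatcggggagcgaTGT
NRG2: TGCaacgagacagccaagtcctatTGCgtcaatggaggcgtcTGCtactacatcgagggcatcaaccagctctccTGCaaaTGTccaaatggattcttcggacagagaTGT
BTC: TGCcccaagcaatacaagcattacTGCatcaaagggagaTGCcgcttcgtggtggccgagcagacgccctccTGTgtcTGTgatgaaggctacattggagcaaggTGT
The stretch lies at codons 108 to 143 of HBEGF, 976 to 1012 of EGF, 345 to 381 of NRG2 and 69 to 104 of BTC. In EGF, with a precursor of 1207 residues, the stretch sits near the end of the protein. No reads over single exons were analysed here, so the values below cover whole genes.

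The libraries held between 56159110 and 68393177 counts, so that 3 counts, taken as the floor, were 0.0435 to 0.054 CPM (TMM-scaled counts relative to library size), an estimate of counting error only. Counts were tested with edgeR's quasi-likelihood test over the 17419 genes that passed the filter on low counts, with Benjamini-Hochberg adjustment, and a gene was called at an adjusted p under 0.05. CCN3 mRNA itself was at 98.1 to 103 CPM in shCTRL and 46.5 to 47.4 CPM in shCCN3 libraries (log2 fold change -1.10, SE 0.0554). shCCN3 replicate 2 stood apart from the other shCCN3 libraries. Its chi-square per degree of freedom was 37.3 and 45.5 against them, compared with 9.86 between shCCN3 replicates 1 and 3. Between shCTRL libraries the values were 7.04, 11.8 and 22.2, the last for replicates 1 and 3. The mesenchymal markers VIM, FN1, SPARC, ZEB1 and CDH2 summed to between 10650 and 11100 CPM in the 6 libraries. The epithelial markers CDH1, EPCAM and ESRP1 were at 0.141 CPM or less in every library, although KRT18 was at 156 CPM or more. CDH2 and KRT18 rose by 0.87 and 0.51 on the log2 scale and KRT8 fell by 0.52, and the part of these in the ligand results was not tested. Of the hormone receptors, ESR1 was at 0.156 CPM or less and PGR was between 2.66 and 4.56 CPM. Of the markers of blood cells and endothelium, PTPRC was at 0.203 CPM or less and PECAM1 was between 3.02 and 4.34 CPM. In bulk samples, fewer cells that express a gene and less RNA per cell cannot be told apart.

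After CCN3 knockdown, ligands of both receptor classes were lower, and the remaining members did not pass the test or were near 0. Of the 10 members, 7 passed the filter on low counts, and 4 of these 7 fell: the EGFR ligands HBEGF and EGF and the neuregulins NRG2 and NRG1. Across all genes tested, 17.3% were called lower and 16.2% were called higher in shCCN3 cells, 33.4% in total. No ligand was called higher. The 7 tested members had a median log2 fold change of -0.28, which is the value of NRG1, against 0.01 for all genes tested. The groups did not overlap for the 4 members that fell, as for 23.6% of all genes tested in that direction and 22.7% in the other. Each of these 4 had p = 0.1 in a two-sided exact permutation test over the 6 libraries, the smallest p that 3 against 3 allow.

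**Figure D1:**
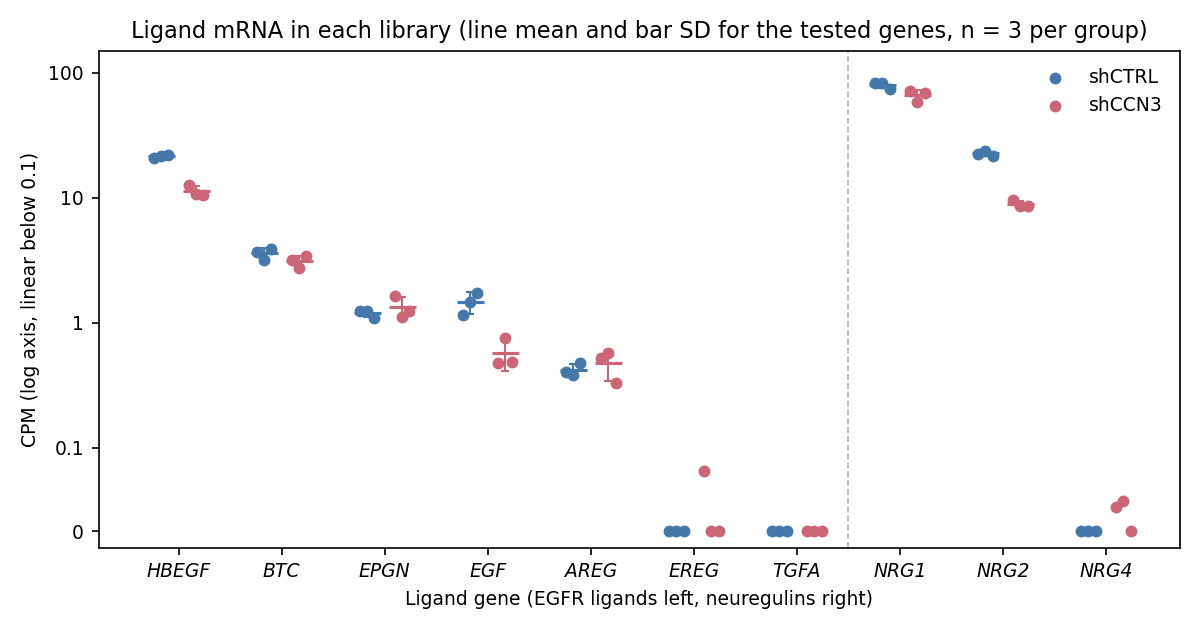
CPM of each ligand gene (x axis) in each of the 6 libraries on a log axis that is linear below 0.1, with shCTRL in blue and shCCN3 in red, points for libraries and, for the 7 tested genes, lines for the mean and bars for the SD (n = 3 per group). The shCCN3 points of HBEGF, EGF, NRG1 and NRG2 sit below all shCTRL points of the same gene, and TGFA is at 0 in all 6 libraries.

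HBEGF encodes heparin-binding EGF-like growth factor, a ligand that binds heparan sulfate and whose precursor is also the diphtheria toxin receptor. It was measured at 21.0, 21.5 and 22.1 CPM in the shCTRL libraries and at 12.6, 10.7 and 10.5 CPM in the shCCN3 libraries. The shCTRL libraries lay close together, and the highest shCCN3 library was well below the lowest of them. The mean in shCCN3 cells was 52.4% of that in shCTRL cells, which is a log2 fold change of -0.93 (SE 0.0897, edgeR adjusted p = 5.89e-05). Of 17165 tested genes with a position, 5.36% had a lower log2 fold change. HBEGF was the EGFR ligand with the most mRNA per length in these cells, at 61.6% to 75.7% of the EGFR ligand transcripts in each library.

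EGF, the founding ligand of the family, was present at a low level. Its counts were 80, 93 and 117 in the shCTRL libraries and 33, 42 and 31 in the shCCN3 libraries. These correspond to 1.16, 1.48 and 1.74 CPM and to 0.479, 0.756 and 0.485 CPM. Both groups were spread, but every shCCN3 library was below every shCTRL library. EGF fell to 39.2% of its shCTRL mean, which is -1.36 on the log2 scale with an SE of 0.262, the widest among the 4 called members (edgeR adjusted p = 0.00349).

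NRG2, a neuregulin best known from the nervous system, fell as far as EGF and with a much smaller error. It was at 22.4, 23.8 and 21.7 CPM in shCTRL cells and at 9.56, 8.67 and 8.67 CPM in shCCN3 cells. The groups were far apart compared with the SD within them, which was 1.07 CPM in shCTRL and 0.511 CPM in shCCN3 libraries. The shCCN3 mean was 39.7% of the shCTRL mean, for a log2 fold change of -1.33 (SE 0.0811, edgeR adjusted p = 3.91e-06). Only 2.63% of the tested genes with a position had a lower log2 fold change. With the call limited to changes of at least 2-fold, a limit that 3.93% of all genes passed on the lower side and 8.1% in either direction, NRG2 and EGF were the members left.

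NRG1, the best studied neuregulin, had more counts than any other member. Its level was 83.1, 83.1 and 74.4 CPM in shCTRL cells and 71.0, 58.1 and 69.4 CPM in shCCN3 cells. The groups did not overlap, but the gap between the lowest shCTRL and the highest shCCN3 library was smaller than the spread within a group. The shCCN3 mean was 82.5% of the shCTRL mean, for a log2 fold change of -0.28 (SE 0.0871, edgeR adjusted p = 0.0357). The call was lost when shCTRL replicate 1, shCTRL replicate 2 or shCCN3 replicate 3 was left out, with adjusted p-values of 0.113, 0.141 and 0.0503. Without shCCN3 replicate 2, which had the lowest NRG1 level, it was -0.19 on the log2 scale (adjusted p = 0.0394).

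BTC, AREG and EPGN, which with EREG lie within 486.1 kilobases of each other on chromosome 4, did not pass the test. BTC encodes betacellulin. It was at 3.67, 3.18 and 3.92 CPM in shCTRL cells and at 3.18, 2.73 and 3.41 CPM in shCCN3 cells, and the groups overlapped. The difference was -0.21 on the log2 scale (SE 0.141, edgeR adjusted p = 0.3). Leaving out 1 library moved it to between -0.28, without shCTRL replicate 2, and -0.12, without shCCN3 replicate 2. AREG, which encodes amphiregulin, had 28, 24 and 32 counts in shCTRL and 36, 32 and 21 counts in shCCN3 libraries. The libraries of both groups were intermixed, and the log2 fold change of 0.17 had an SE of 0.309, larger than the value itself (edgeR adjusted p = 0.726). With 1 library left out it ranged from 0.02 without shCCN3 replicate 2 to 0.38 without shCCN3 replicate 3. EPGN, which encodes epigen, had 86, 78 and 74 counts in shCTRL and 113, 62 and 79 counts in shCCN3 libraries. The highest and the lowest EPGN counts were both in shCCN3 libraries, and the log2 fold change of 0.15 had an SE of 0.204 (edgeR adjusted p = 0.61). Without shCCN3 replicate 1 it was -0.03.

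EREG, TGFA and NRG4 were at or near 0 and were not tested. TGFA, the gene of transforming growth factor alpha, had 0 counts in all 6 libraries, which allows up to 0.054 CPM in the shallowest one. EREG, the gene of epiregulin, had 5 counts in shCCN3 replicate 1 and 0 in the other 5 libraries. NRG4 had 2 counts in each of 2 shCCN3 libraries and 0 elsewhere. Its exons share 1917 bases with FBXO22 on the opposite strand, which had up to 1564 counts, and the sources do not say whether reads were assigned by strand. Of the members that fell, exons of NRG2 share 234 bases with an antisense transcript that has no row of its own, and those of HBEGF, EGF and NRG1 overlap no other gene in GENCODE release 29.

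Levels of different ligands can be compared per length. Dividing CPM by the union of a gene's exons (GENCODE release 29) gave RPKM, the CPM per kilobase of exon. On this scale HBEGF at 7.13 ± 0.181 RPKM (SD, n = 3) and NRG1 at 7.08 ± 0.443 RPKM (SD, n = 3) did not differ beyond their spread in shCTRL cells. NRG2 followed at 5.0 ± 0.238 RPKM, BTC at 1.27 ± 0.133 RPKM and EPGN at 0.661 ± 0.0459 RPKM (SD, n = 3 each). AREG at 0.256 ± 0.0298 RPKM and EGF at 0.239 ± 0.0473 RPKM (SD, n = 3 each) could not be ordered. In shCCN3 cells NRG1 came first at 5.84 ± 0.621 RPKM (SD, n = 3), ahead of HBEGF at 3.74 ± 0.390 RPKM (SD, n = 3). NRG2 at 1.98 ± 0.114 RPKM still exceeded BTC at 1.10 ± 0.121 RPKM, and EGF came below AREG, with 0.0935 ± 0.0258 against 0.288 ± 0.0790 RPKM (SD, n = 3 each). The place of NRG1 depends on the length used: with the length of the transcript with the longest coding sequence it was at 31.9 in shCTRL cells against 9.02 for HBEGF.

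The sum of the family per length was 21.7, 22 and 21.3 RPKM in the shCTRL libraries and 15.0, 12.7 and 13.7 RPKM in the shCCN3 libraries. The groups did not overlap in this sum. EGFR ligands made up 42.8% to 46.5% of the sum in shCTRL libraries and 41.3% to 44.2% in shCCN3 libraries, and these ranges overlapped. The sum, this split and the ratio of NRG1 to HBEGF depend on the length used, because the exons of NRG1 add up to far more than 1 transcript. With the length of the transcript with the longest coding sequence, the sum was 49.4 to 53.1 RPKM in shCTRL and 33.2 to 40.0 RPKM in shCCN3 libraries. EGFR ligands were then 22.4% to 25.1% of it in shCTRL and 18.8% to 21.5% in shCCN3 libraries, without overlap. Among the EGFR ligands, the share of HBEGF was nearly the same on both lengths. HBEGF went from 74.0% to 75.7% of the EGFR ligand transcripts per length in shCTRL libraries to 61.6% to 63.2% in shCCN3 libraries. The ligands BTC, EPGN and AREG, which were not called, had larger shares of a smaller EGFR ligand sum. The share of BTC went from 12% to 14.1% up to 17% to 21.4%, and that of EPGN from 6.15% to 7.35% up to 11% to 13.6%. That of AREG went from 2.46% to 2.93% up to 3.52% to 6.24%. The ratio of NRG1 to HBEGF, which does not depend on library scaling, was 1.06, 1.03 and 0.899 in shCTRL libraries and 1.5, 1.45 and 1.76 in shCCN3 libraries. With the other length it was 3.20 to 3.76 and 5.16 to 6.26, again higher in every shCCN3 library. No test was run on these sums and shares.

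The members that fell lie on 3 chromosomes, and NRG2 and HBEGF are near neighbours. On GRCh38, NRG2 lies on the minus strand of chromosome 5 from 139846781 to 140043299 and HBEGF on the same strand from 140332843 to 140346603, 289.5 kilobases apart. EGF occupies 109912883 to 110013766 of chromosome 4 and NRG1 31639245 to 32774046 of chromosome 8, both on the plus strand. Of the 6 genes between NRG2 and HBEGF, all tested, 1 was called lower and 0 higher, with log2 fold changes from -1.01 to 0.24 and a median of -0.07. For this and the counts below, 17.3% of all genes tested were called lower and 16.2% higher. The called gene was CYSTM1 (log2 fold change -0.73), named here after its value was seen. The 24 tested genes nearest to each member gave a median log2 fold change of -0.01 around NRG2, -0.04 around HBEGF and 0.03 around EGF. Among them, 3 were called lower and 0 higher around NRG2, 2 and 0 around HBEGF, and 6 and 3 around EGF. HBEGF is itself among the genes called lower around NRG2, and NRG2 among those around HBEGF. CYSTM1 is counted around both. NRG2, HBEGF and EGF stood well below the medians of their neighbourhoods. Around NRG1 the 24 nearest genes had a median of -0.27, with 14 called lower and 2 called higher, against a median of 0.11 over all 612 tested genes of chromosome 8. NRG1 fell by 0.28 on the log2 scale, the same size as its neighbourhood, and the part of the neighbourhood in its fall was not tested.

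The 250 bases before the start of HBEGF, EGF and NRG2 are shown from RefSeq (GRCh38.p14), because these genes carry the larger falls. Capitals mark matches on either strand to 6 short motifs. The motifs were the AP-1 element TGANTCA, the cyclic AMP response element (CRE) in its full palindromic form TGACGTCA, and the GC box known as the site of SP1, GGGCGG. The TATA box was searched as TATAAA, the E-box as CACGTG, and the TCF/LEF element of the Wnt pathway as CTTTGAT. The HBEGF stretch is chr5:140346604-140346853 and the NRG2 stretch chr5:140043300-140043549, both on the minus strand, and the EGF stretch is chr4:109912633-109912882 on the plus strand.
HBEGF: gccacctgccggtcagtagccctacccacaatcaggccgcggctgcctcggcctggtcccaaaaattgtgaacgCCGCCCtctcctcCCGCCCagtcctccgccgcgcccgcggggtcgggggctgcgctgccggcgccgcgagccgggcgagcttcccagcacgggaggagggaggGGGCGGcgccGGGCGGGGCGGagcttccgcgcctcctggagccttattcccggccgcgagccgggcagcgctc
NRG2: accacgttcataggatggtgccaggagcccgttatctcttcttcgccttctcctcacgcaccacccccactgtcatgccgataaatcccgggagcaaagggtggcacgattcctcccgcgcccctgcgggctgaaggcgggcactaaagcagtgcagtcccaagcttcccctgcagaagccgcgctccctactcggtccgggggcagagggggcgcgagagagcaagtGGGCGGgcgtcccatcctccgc
EGF: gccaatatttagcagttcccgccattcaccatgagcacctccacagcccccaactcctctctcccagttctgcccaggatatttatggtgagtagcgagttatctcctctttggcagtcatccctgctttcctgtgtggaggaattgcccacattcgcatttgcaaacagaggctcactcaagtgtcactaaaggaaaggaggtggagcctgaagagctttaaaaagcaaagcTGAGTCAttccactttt
No motif was matched in all 3 promoters. HBEGF held 5 GC boxes, of which a pair overlaps by 1 base, in a stretch of 76.4% GC, and NRG2 held 1 GC box in a stretch of 65.2% GC. GC boxes were found in 42.6% of the 35116 RefSeq promoter windows of this length. EGF held no GC box, in a stretch of 48.8% GC, but an AP-1 match beginning at position -17, where -1 is the base before the start. AP-1 matches were found in 6.57% of all windows. CRE, TATA, E-box and TCF/LEF letters were not in these 3 windows and occurred in 1.65%, 10.7%, 6.34% and 2.26% of all windows. NRG2 has a further RefSeq start inside the gene, and counts per gene do not tell which start was used.

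Of the 3 receptors tested, EGFR was the one called, a share of 33.3% against 33.4% of all genes tested. EGFR fell from 177, 161 and 143 CPM in shCTRL cells to 96.1, 73.9 and 97.0 CPM in shCCN3 cells. The groups did not overlap, as for 23.6% of all genes tested in that direction. The fall of EGFR by 0.85 on the log2 scale (SE 0.115, edgeR adjusted p = 0.000465) was close in size to that of its ligand HBEGF. ERBB2, the receptor without a ligand of its own, was at 72.0 to 82.8 CPM in shCTRL and 77.2 to 78.9 CPM in shCCN3 cells, a log2 fold change of 0.01 with an SE of 0.0658. ERBB3, a receptor of NRG1 and NRG2, was at 0.894 to 1.12 CPM in shCTRL and 0.90 to 1.27 CPM in shCCN3 cells (adjusted p = 0.502). ERBB4, which also binds neuregulins, did not pass the filter and was at 0.172 CPM or less in every library. The neuregulin transcripts were measured in cells with little mRNA of either neuregulin receptor.

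**Figure D2:**
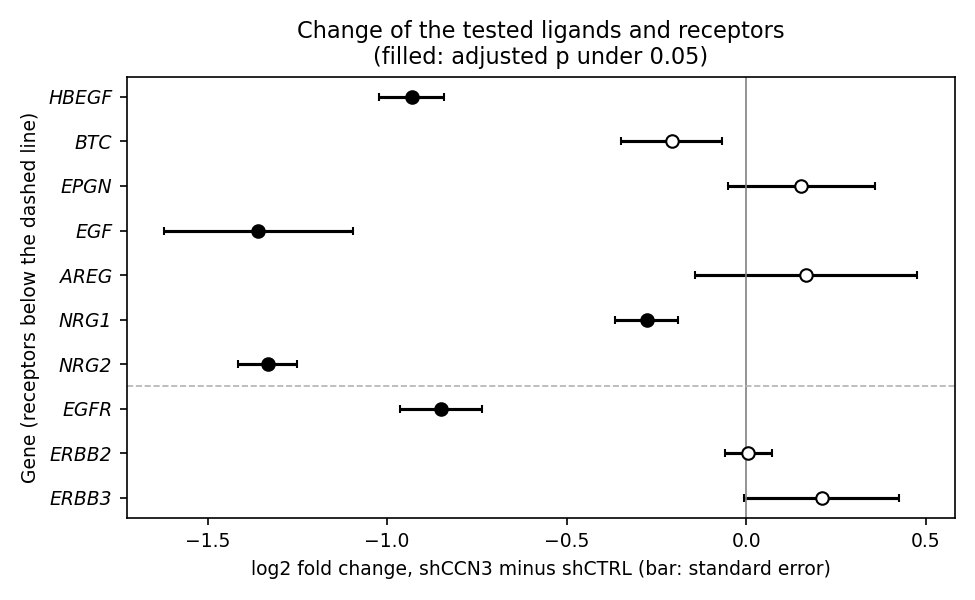
Log2 fold change of shCCN3 minus shCTRL (x axis, bars for the standard error) for the 7 tested ligands and, below the dashed line, 3 tested receptors, with filled points at an adjusted p under 0.05. HBEGF, EGF, NRG1, NRG2 and EGFR are filled and lie left of 0, with NRG1 at -0.28 closest to it.

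A list of 13 genes that release the ligands from their precursors or regulate that step was tested, and 4 fell and 0 rose. The called share was 30.8%, close to the 33.4% of all genes tested, of which 17.3% were lower. The median log2 fold change was -0.18 against 0.01 for all genes tested. ADAM17, the main sheddase of HBEGF and AREG precursors, was at 31.1 to 35.6 CPM in shCTRL and 28.2 to 37.0 CPM in shCCN3 cells, with a difference of 0.02 on the log2 scale (SE 0.105). ADAM10, which cuts the EGF and BTC precursors, differed by 0.12 on the log2 scale (SE 0.0891, edgeR adjusted p = 0.332). BACE1, a protease that cuts neuregulin precursors, fell from 61.2 to 68.9 CPM in shCTRL cells to 35.0 to 42.2 CPM in shCCN3 cells, a log2 difference of -0.74 (edgeR adjusted p = 0.000157). TIMP3, an inhibitor of ADAM17, fell by 0.69 on the log2 scale (edgeR adjusted p = 1.45e-05). ADAM15 and FRMD8, a partner of the iRhom proteins that carry ADAM17, fell by 0.31 and 0.30 on the log2 scale. ADAM19 differed by 0.20 on the log2 scale (SE 0.0675, edgeR adjusted p = 0.0504), just outside the call. Under some of the alternative settings, 1 gene of this list was called higher.

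Of 7 genes for proteins that bind or carry ligand precursors or act beside the receptor, 6 were tested, of which 4 fell and 0 rose, with a median of -0.29 on the log2 scale. Of all genes tested, 17.3% were lower and 33.4% were called in either direction. CD9, a tetraspanin that binds the HBEGF precursor, was at 76.7 to 89.6 CPM in shCTRL and 62.7 to 70.3 CPM in shCCN3 cells, a log2 difference of -0.34 (edgeR adjusted p = 0.0086). NRDC, which encodes nardilysin, an HBEGF-binding metalloendopeptidase, and CD44 fell by 0.33 and 0.25 on the log2 scale. GPNMB, a transmembrane glycoprotein, had the largest fall of the list, with a log2 fold change of -1.01. The paper had picked GPNMB from the same RNA-seq data, combined with patient data, as a gene lowered by CCN3 knockdown. Its fall was therefore known beforehand, and the count and median above include it. CNIH1 and GORASP2, which take part in the transport of the TGFA precursor, did not pass the test, and NKD2 had 0 counts in every library.

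The transcripts that ErbB and ERK signaling is known to induce moved in both directions. Of 20 genes tested, 9 fell, 5 rose and 6 did not pass the test, with a median log2 fold change of -0.13. The called share was 70.0%, against 33.4% of all genes tested. The genes that fell included the feedback inhibitors SPRED2 and ERRFI1, while the related SPRY1 and SPRED1 had log2 fold changes of 0.30 and -0.08 and did not pass the test. FOSL1, an AP-1 subunit, fell by 0.48. DUSP6, a phosphatase of ERK, fell from 26.9 to 28.8 CPM in shCTRL cells to 9.77 to 10.9 CPM in shCCN3 cells, a log2 fold change of -1.42. DUSP4, SPRY2, DUSP5, SPRY4 and the early response gene PHLDA1 fell by 1.13, 1.12, 0.65, 0.65 and 0.59 on the log2 scale. LRIG1, which promotes EGFR degradation, rose from 24.7 to 28.3 CPM up to 59.0 to 72.0 CPM, a log2 difference of 1.37 (edgeR adjusted p = 7.27e-06). The immediate early genes EGR1 and IER3 rose by 1.30 and 0.88 on the log2 scale, and EGR1 stayed at 4.49 CPM or less. MYC and CCND1 were the other genes that rose, by 0.53 and 0.24. FOS, ETV4, ETV5 and SPHK1 had log2 fold changes of -0.17, -0.08, 0.02 and 0.08 and did not pass the test.

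**Figure D3:**
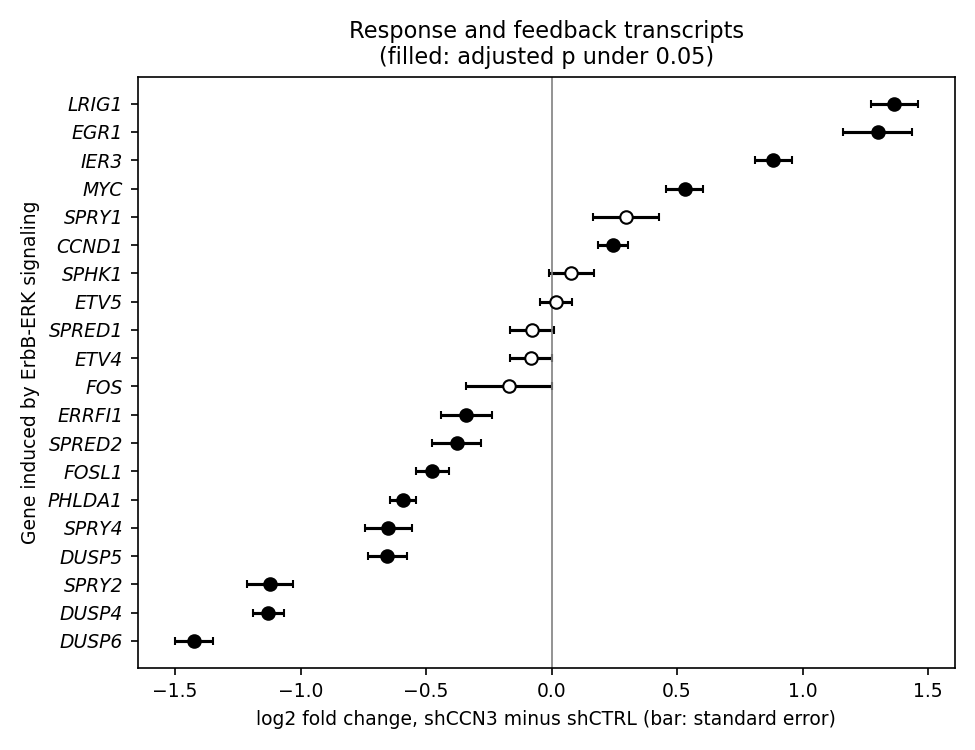
Log2 fold change of shCCN3 minus shCTRL (x axis, bars for the standard error) for 20 genes induced by ErbB and ERK signaling, sorted by size, with filled points at an adjusted p under 0.05. The lowest point is DUSP6 at -1.42 and the highest LRIG1 at 1.37, with 9 filled points left of 0 and 5 right of it.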

How the data were processed

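RNA-seq libraries were prepared by the authors with a stranded mRNA kit from Hs578T shCTRL and shCCN3 cells, 3 samples each. The deposited table holds whole-number counts for 46427 genes by NCBI Gene ID, headed as read counts and with a different total per library. Whether they were counted from reads or derived from StringTie's coverage is not given in the sources used here. The submitters' processing notes list bcl2fastq 2.20.0, Trimmomatic, HISAT2 2.1.0, StringTie and DESeq2 with GRCh38. The annotation and the strand setting of the counting are not given in the sources used here. Columns were matched to samples by their names.

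The counts were TMM-scaled and tested in edgeR 4.0.16 (R 4.3.3), with its filter on low counts by group, the quasi-likelihood test and Benjamini-Hochberg adjustment over all 17419 genes tested. The standard error is the log2 fold change divided by the root of the F statistic. Scripts were tested on simulated data first. DESeq2 1.42.0 and limma 3.58.1 (voom), other normalizations and filters, a replicate block and each library left out were the alternatives. The 10 members were all named, as were the 4 receptors, and from the other lists GPNMB, ADAM17, ADAM10, CD9 and genes called with a log2 change of at least 0.58, at most 6 a list. Other genes named complete a count or a list. The members and lists were chosen with earlier results of these data known. Exon lengths come from GENCODE release 29, and positions and promoters from RefSeq.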

Additional observations from a re-analysis of the deposited data

How the results depend on the processing

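For HBEGF, EGF and NRG2, direction and call were the same under all 13 alternatives, with log2 fold changes from -1.02 to -0.88, from -1.59 to -1.21 and from -1.38 to -1.29. NRG1 kept its direction in all 13 and its call in 9. Its log2 fold change was -0.28 with a replicate block (adjusted p = 0.0583), and from -0.33 to -0.19 with 1 library left out. EPGN, not called, ranged from -0.0266 without shCCN3 replicate 1, a reversal, to 0.267 without shCCN3 replicate 2. The count of 4 members called moved to 2 with a limit of 2-fold. With 1 library left out it stayed between 3 and 4. Across genes, samples that share a number correlated at 0.149, -0.0726 and -0.259 after centring each group. No pairing by number was seen, but this cannot show whether same-numbered samples were prepared together. With the replicate block 4887 genes were called in place of 5825, and the count of members was 3. Without shCCN3 replicate 2 it was 7229 genes. Counts of called receptors, shedding genes, binding partners and response genes stayed within 1.5 times the counts given, with 4 to 6 shedding genes and 12 to 15 response genes. Among the shedding genes, 1 was called higher with DESeq2 or its size factors, with upper-quartile normalization and with at least 10 counts in every library. The same number was called higher without shCCN3 replicate 2. With 12 or 48 nearest genes, chosen after seeing the data, the medians around NRG1 were -0.27 and -0.27, and those around EGF -0.15 and -0.01. Around NRG2 they were -0.15 and -0.03, and around HBEGF -0.06 and -0.11. CPM without TMM factors, also chosen later, left the 4 members at the smallest exact permutation p. AREG, EGF, EREG and NRG4 are limited by their counts. The sums and shares per length with the other transcript length, chosen after seeing the data, are given beside the main values.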
